A study of Mus musculus with 24 samples.

Results

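The loss of phospholamban in left ventricles that carry the Tm180 transgene was examined at 4 months of age, by setting Tm180/PLB KO mice against Tm180 mice. The arrays were chosen by sample title, and 6 of the 24 arrays of the series belong to this comparison, 3 for each genotype. Tm180 mice have a transgene for a mutant α-tropomyosin and are described in the series title as a model of familial hypertrophic cardiomyopathy. Tm180/PLB KO mice carry that transgene and also lack phospholamban, so every mouse of the comparison has the transgene and only the phospholamban gene differs by design. The sources used here do not name the promoter of the transgene or the sex of the mice, and no group carries a transgene of normal tropomyosin. The other groups used below, also 3 arrays each, were nontransgenic (NTG) and PLB KO mice at 4 months, neither of which has the transgene, and all 4 genotypes at 12 months. By their titles, arrays of one group are biological replicates. RNA came from frozen left ventricle, and expression was measured on Affymetrix arrays as log2 values.

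Phospholamban is a small membrane protein of the sarcoplasmic reticulum. In its unphosphorylated form it holds back the calcium pump SERCA, which returns calcium to the store after each contraction, and phosphorylation of phospholamban after β-adrenergic stimulation releases that brake. Tropomyosin lies along the thin filament and controls access of myosin to actin in response to calcium, so both genetic changes act on the calcium cycle of the cardiomyocyte. The comparison addresses which transcripts of the transgenic ventricle differ once the brake on the pump is absent.

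The 6 arrays correlated at 0.9647 to 0.9827 within their groups over the 15918 genes tested. Ventricular Myl2 read between 13.04 and 13.23 and Myh6 between 13.03 and 13.18, whereas the atrial light chain Myl7 read 4.97 to 7.61. Tm180/PLB KO replicate 2 and Tm180 replicates 2 and 3 had the higher Myl7 levels, at 7.61, 7.10 and 7.0. Tm180 replicate 1 stood apart in its sex-linked transcripts, with Xist, the X-inactivation transcript, at 4.14 against 9.56 to 10.24 on the other 5 arrays, and Y-linked Eif2s3y at 8.33 against 2.44 to 3.05. The same array had the highest immediate-early gene level of its group, and counts of genes whose groups are apart are given with it and, where they move by over 1.5 times, without it. Among the groups used beside this comparison, the sex-linked list mean at 4 months was 6.929, 6.785 and 6.653 in PLB KO. It was 6.712, 4.879 and 5.043 in NTG, and 6.707 on Tm180 replicate 1. In PLB KO against NTG at 4 months, genotype and sex-linked signal therefore cannot be fully told apart. In tissue RNA, fewer cells of a type and less RNA per cell cannot be told apart.

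The targeted gene separated the genotypes. Pln, which encodes phospholamban, read 13.70, 13.72 and 13.62 in Tm180 and 7.37, 7.63 and 7.05 in Tm180/PLB KO. All 3 Tm180/PLB KO arrays lay far below the Tm180 arrays. Pln fell by 6.33 ± 0.324 (SE, 3 against 3 arrays) on the log2 scale, an 80.6-fold difference (limma, adjusted p = 1.6e-10). On other arrays the same deletion gave -5.86 in PLB KO against NTG at 4 months and -7.39 in Tm180/PLB KO against Tm180 at 12 months. Tpm1, the α-tropomyosin gene, read 13.27, 13.12 and 13.14 in Tm180/PLB KO and 13.11, 13.20 and 13.18 in Tm180, groups that overlap, with a difference of 0.01 ± 0.0889. Transgene transcripts and endogenous ones were not told apart by this probe set.

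Beside Pln, 2 genes passed the test, both higher in Tm180/PLB KO: the monocarboxylate transporter family gene Slc16a13 and Bcl6b, a transcriptional repressor related to Bcl6. These 3 calls are 0.0188% of the 15918 genes tested, at an adjusted p under 0.05 in limma. When replicate number was added as a block, since same-numbered arrays deviated together, the fit called 15 genes, 10 higher and 5 lower. In the main fit, which has no block, an unadjusted limma p under 0.05 was reached by 619 genes, 3.89% of those tested. With the block 1465 genes reached it. The median difference over all genes was -0.014.

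Slc16a13 read 8.62, 9.25 and 9.30 in Tm180/PLB KO and 6.94, 7.0 and 7.11 in Tm180. The lowest knockout array exceeded the highest Tm180 array by more than the whole range within either group. Slc16a13 rose by 2.04 ± 0.31 (4.11-fold, limma, adjusted p = 0.0148). Bcl6b read 9.30, 9.69 and 9.56 against 7.86, 7.87 and 8.54, again without overlap, and rose by 1.43 ± 0.242 (2.70-fold, limma, adjusted p = 0.0406). Neither gene had more than 1 probe set on the array. Both calls are close to the threshold. Slc16a13 stayed called without Tm180/PLB KO replicate 1 or without Tm180 replicate 3, but had an adjusted p of 0.116 and 0.199 without Tm180/PLB KO replicates 2 and 3, and 0.0913 and 0.13 without Tm180 replicates 1 and 2. Bcl6b stayed called only without Tm180 replicate 3, with adjusted p from 0.0894 to 0.408 when any other of the 6 arrays was left out, and both calls were lost when the 4-month groups were fitted alone, at 0.0673 and 0.13.

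The genes Slc16a13 and Bcl6b are immediate neighbours on chromosome 11 in the RefSeq order. The next gene before them, Slc16a11, another monocarboxylate transporter family gene, read 6.09, 6.59 and 6.51 in Tm180/PLB KO and 6.07, 6.08 and 5.85 in Tm180, a difference of 0.40 ± 0.161 that did not pass the test. On the other side, Mir497 differed by 0.01 ± 0.155 and Mir195a by -0.42 ± 0.138, neither called. The groups were apart at Slc16a11 and, in the other direction, at Mir195a. Among the 13 measured genes from Dlg4 to Alox12, only Slc16a13 and Bcl6b were called. These neighbours were looked at after their values were seen.

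**Figure D1:**
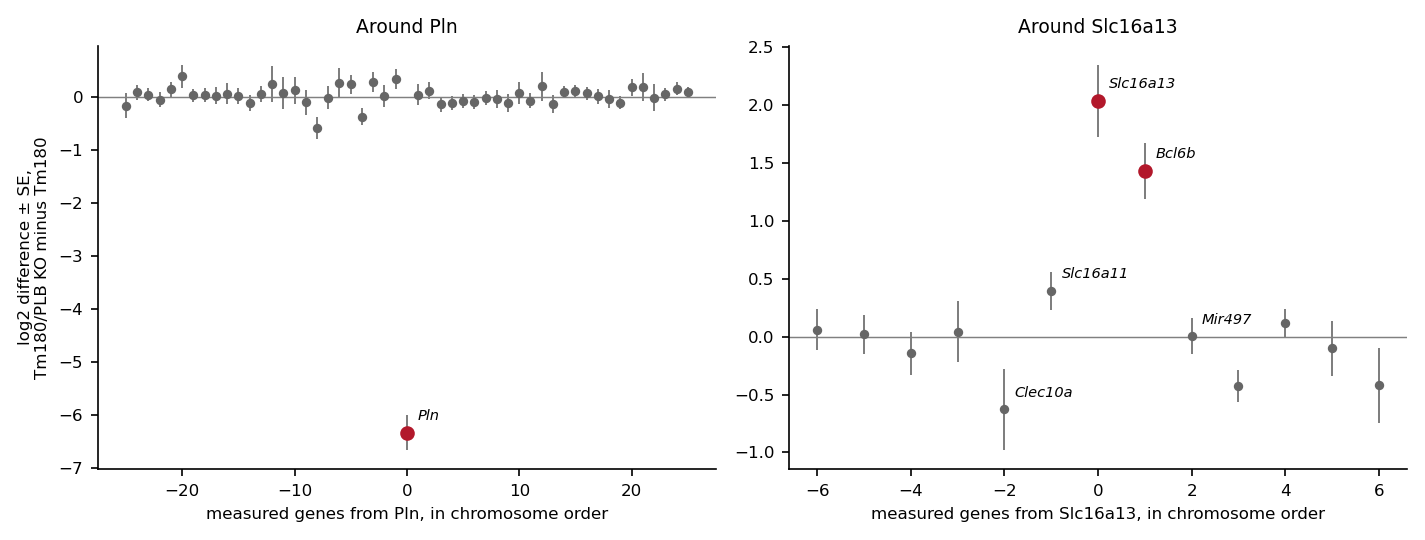
Log2 difference with SE (Tm180/PLB KO minus Tm180 at 4 months, 3 arrays each) for measured genes in chromosome order, 25 on either side of Pln on the left and 6 on either side of Slc16a13 on the right; red points passed the limma test. Pln lies alone at -6.33, and Slc16a13 and Bcl6b stand side by side at 2.04 and 1.43.

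Around Pln on chromosome 10 no other gene was called. The 50 measured genes nearest to it differed by -0.58 to 0.39, with a median of 0.04. The closest before it were Nus1, Slc35f1 and Cep85l, at 0.28, 0.02 and 0.34, and the closest after it were Mcm9, Asf1a and Fam184a, at 0.04, 0.12 and -0.14. Of the 50, 2 had an unadjusted limma p under 0.05, near the share of 3.89% over all genes tested. They were Vgll2 at -0.58 ± 0.211 and Nepn at -0.37 ± 0.164, named after their values were seen.

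In the other comparisons of phospholamban loss neither gene of the chromosome 11 pair was called. At 12 months Slc16a13 read 6.79, 7.40 and 6.91 in Tm180/PLB KO and 6.87, 7.42 and 6.78 in Tm180, a difference of 0.01 ± 0.31. Bcl6b differed there by 0.18 ± 0.242. Without the transgene, at 4 months, Slc16a13 read 8.10, 8.27 and 8.76 in PLB KO and 8.14, 6.82 and 7.14 in NTG. Replicate 1 of NTG, the NTG array with the sex-linked level of PLB KO, reached into the PLB KO range. The difference was 1.01 ± 0.31 (limma, unadjusted p = 0.00389, adjusted p = 1.0). Bcl6b read 8.73, 8.98 and 9.41 in PLB KO and 8.92, 7.96 and 8.52 in NTG, again with overlap through NTG replicate 1, and differed by 0.58 ± 0.242 (limma, unadjusted p = 0.0267, adjusted p = 1.0). The test of the difference between ages gave 2.03 for Slc16a13 (unadjusted p = 0.000153) and 1.25 for Bcl6b (unadjusted p = 0.0015), and neither passed adjustment in limma (adjusted p = 1). Across all genes 0 of 15918 (0%) passed in that test and 239 had an unadjusted p under 0.05. The test of whether phospholamban loss differed with and without the transgene at 4 months also called 0 genes (0%), with 190 at an unadjusted p under 0.05. Phospholamban loss in Tm180 hearts at 12 months and in PLB KO against NTG at 4 months each gave 1 call, Pln, or 0.00628%, and the replicate block gave 10 calls in the latter. No gene was therefore shown to respond in a way particular to Tm180 hearts or to 4 months.

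**Figure D2:**
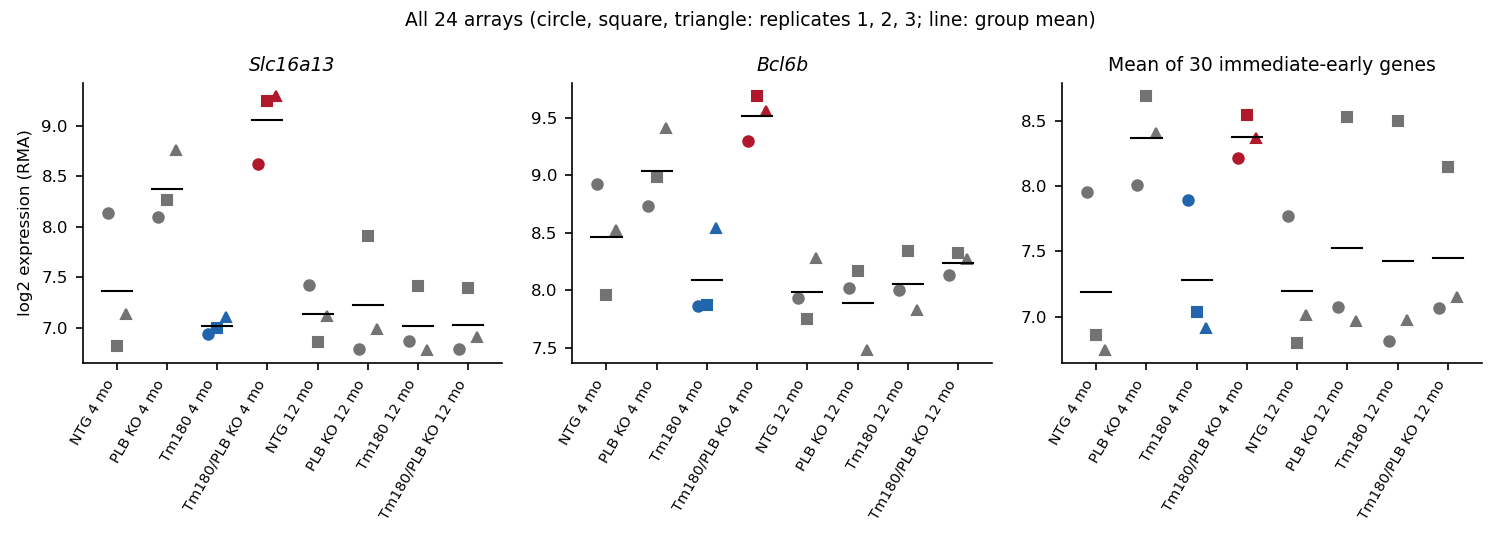
Log2 levels on all 24 arrays of Slc16a13, Bcl6b and the mean of 30 immediate-early genes, by genotype and age; symbols are replicates, lines group means, red Tm180/PLB KO and blue Tm180 at 4 months. Slc16a13 reaches 8.62 to 9.30 in Tm180/PLB KO at 4 months, and the immediate-early mean is also high there, at 8.22 to 8.54. That mean is as high in PLB KO at 4 months, at 8.01 to 8.69. Single arrays at 12 months reach 8.50 in Tm180 and 8.53 in PLB KO.

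Below the threshold, 12 further genes were named by rank as higher in Tm180/PLB KO, with limma adjusted p between 0.162 and 0.338. None of them belongs to any of the lists of pathways and cell types compared here. Cxcl2, a neutrophil-attracting chemokine, read 7.48, 8.44 and 7.73 against 5.22, 4.32 and 4.20, a difference of 3.30 ± 0.735. Tnfaip3, which encodes the NF-κB inhibitor A20, read 9.33, 9.72 and 9.38 against 7.54, 6.35 and 5.93, a difference of 2.87 ± 0.72. In both, Tm180 replicate 1 was the highest of its group and still below all Tm180/PLB KO arrays.

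Ccrl2, a chemokine receptor-like gene, read 8.47, 7.88 and 8.01 against 6.93, 6.41 and 6.39, and differed by 1.54 ± 0.307. Birc3, an inhibitor of apoptosis that acts in NF-κB signalling, read 7.87, 7.92 and 8.32 against 6.83, 6.66 and 6.68. Irak2, a kinase of interleukin-1 receptor signalling, read 7.35, 6.83 and 7.15 against 6.38, 6.37 and 6.20. The remaining named genes were the kinase anchor Akap12 (0.82), the receptor-modifying protein gene Ramp3 (0.70), Gramd1b (0.64), the Kit ligand gene Kitl (0.64), the small GTPase Rhob (0.85), Ccdc59 (0.68) and Tnip3 (0.99). All 12 had arrays of the groups apart, where 3.88% of all genes were apart above. Ranking by t on these same arrays favours that, so it adds no evidence for them. Left unnamed was 1 predicted gene. Gramd1b, picked after its values were seen, also differed by 0.57 ± 0.151 at 12 months. In PLB KO against NTG at 4 months it differed by 0.63 ± 0.151, and it was called in neither. Ccrl2, Irak2, Cxcl2, Birc3, Ramp3, Tnip3 and Tnfaip3 had lower means in Tm180/PLB KO than in Tm180 at 12 months. With the replicate block, Ccrl2 passed at an adjusted p of 0.0167, Gramd1b at 0.027, Rhob at 0.0349 and Ccdc59 at 0.0399. With only the compared groups in the fit, Cxcl2 passed at 0.00707, Birc3 at 0.018, Tnfaip3 at 0.0187 and Ccrl2 at 0.0346.

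The promoters of Cxcl2, Tnfaip3 and Fos are shown because Cxcl2 and Tnfaip3 had the largest differences of the genes named by rank as higher and Fos is a defining immediate-early gene. Each stretch is the 250 bases before the RefSeq start in the build GRCm38.p6, 5′ to 3′ on the gene's strand, and capitals mark matches on either strand to a κB-type motif (GGG, any 2 bases, then TTTCC) or to TGACGT, the core of a cAMP response element. No matches overlap in these stretches. The Cxcl2 stretch is at chr5:90903649-90903898 on the plus strand, that of Tnfaip3 (the first of 2 listed) at chr10:19015411-19015660 on the minus strand, and that of Fos at chr12:85473640-85473889 on the plus strand.
Cxcl2: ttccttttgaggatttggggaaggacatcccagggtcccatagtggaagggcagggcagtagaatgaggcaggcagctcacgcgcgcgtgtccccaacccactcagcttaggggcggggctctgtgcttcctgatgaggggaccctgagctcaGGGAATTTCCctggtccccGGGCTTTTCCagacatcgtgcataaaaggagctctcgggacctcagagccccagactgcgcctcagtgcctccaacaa
Tnfaip3: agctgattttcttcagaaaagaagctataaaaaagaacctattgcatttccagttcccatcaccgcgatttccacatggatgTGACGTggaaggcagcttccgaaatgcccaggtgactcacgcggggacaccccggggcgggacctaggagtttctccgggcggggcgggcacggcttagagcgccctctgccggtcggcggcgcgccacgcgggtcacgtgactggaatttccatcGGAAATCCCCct
Fos: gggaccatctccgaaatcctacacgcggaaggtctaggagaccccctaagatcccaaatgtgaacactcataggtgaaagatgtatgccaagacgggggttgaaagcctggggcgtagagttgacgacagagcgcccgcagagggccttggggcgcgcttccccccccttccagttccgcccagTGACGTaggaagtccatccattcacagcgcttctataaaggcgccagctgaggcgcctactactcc

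Cxcl2 held 2 matches to the κB-type motif and Tnfaip3 held 1 match to each motif, while Fos held 1 match to TGACGT. Of the 15918 genes tested, 12514 had such a stretch, and 1.77% of these held the κB-type motif and 10.3% held TGACGT. The latter was found in 9 of the 24 immediate-early genes with a stretch (37.5%), Atf3, Btg2, Ccn1, Dusp1, Egr2, Egr4, Fos, Maff and Nr4a3, and the κB-type motif in 0 of them. Of 10 genes named as higher with a stretch, Cxcl2 and Tnfaip3 held the κB-type motif and Ccdc59, Ccrl2 and Tnfaip3 held TGACGT. Among 17 genes of the complement and acute inflammation list with a stretch, Cxcl1 and Il6 held both motifs. A match describes the letters and is not shown to be a bound site.

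The immediate-early genes, transcription factors and signalling regulators that are induced within minutes of a stimulus, stood highest of the 34 lists of pathways and cell types compared. Of 30 measured, 26 had a higher mean in Tm180/PLB KO, with a median of 1.14 against -0.014 over all genes. In 19 the arrays of the groups were apart with Tm180/PLB KO above, where 3.88% of all genes were, and in 0 they were apart below. None passed the test, but Ier2 did with only the compared groups in the fit (1.61, limma, adjusted p = 0.0448). Nr4a1, an orphan nuclear receptor, read 11.29, 11.10 and 11.40 against 10.09, 7.64 and 7.69, a difference of 2.79 ± 0.978 (unadjusted p = 0.00966). Fos, a subunit of AP-1, read 7.76, 7.89 and 8.29 against 7.16, 5.51 and 6.04. Fosb, a second Fos family member, read 7.0, 7.11 and 6.80 against 6.74, 5.87 and 5.46. In all 3, Tm180 replicate 1 lay closest to the knockout arrays, and the mean over the list was 7.89 on that array against 7.03 and 6.91 on the other Tm180 arrays and 8.22, 8.54 and 8.37 in Tm180/PLB KO. Without it the median was 1.54 and 22 genes were apart, where 8.42% of all genes were. Further examples, chosen like all later ones after their values were seen, were Atf3 (2.11), Egr1 (2.07), Zfp36 (1.99) and the phosphatase gene Dusp1 (1.35).

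The immediate-early median was also above 0 in hearts without the transgene. It was 1.21 in PLB KO against NTG at 4 months, on 6 other arrays, and 0.07 in Tm180/PLB KO against Tm180 at 12 months. In the former, genotype and sex-linked signal cannot be fully told apart. NTG replicate 1, the NTG array with the sex-linked level of PLB KO, had the highest immediate-early mean of NTG, 7.96. Within groups of the series the list mean also varied between arrays, from 6.75 to 7.96 in NTG at 4 months and from 6.82 to 8.50 in Tm180 at 12 months. With the level of these genes on each array as a covariate, an alternative added after seeing the data, the difference of Slc16a13 was 1.47 (limma, adjusted p = 0.0273) and that of Bcl6b 1.19, no longer called (adjusted p = 0.17).

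Genes of complement and acute inflammation differed in both directions. Of 25 measured, 9 were apart with Tm180/PLB KO above and 5 apart below, against 3.88% and 4.26% of all genes, and 11 overlapped. None was called, but Icam1 was with only the compared groups in the fit (limma, adjusted p = 0.0176). When Tm180 replicate 1 was left out, 13 were apart above and 8 below, where 8.42% and 10.5% of all genes were. Those apart above were the cytokines, chemokines and adhesion molecules named next. Il6 read 6.52, 7.46 and 6.73 against 5.49, 3.64 and 2.68 (2.97 ± 1.05), and Icam1, a leukocyte adhesion molecule, read 9.58, 10.40 and 10.02 against 8.11, 7.18 and 7.04 (2.55 ± 0.711). Cxcl1 (2.67), Il1b (2.55), Ccl2 (1.95), Vcam1 (1.89), Tnf (1.24), Ccl7 (1.12) and Cxcl10 (0.66) were the others. Those apart below were the complement genes C4b (-0.94), C1s1 (-0.34), the C1 inhibitor gene Serping1 (-0.43) and C1qa (-0.38), with the chemokine Ccl8 (-0.57). C1qa and C1qb read -0.38 ± 0.213 and -0.42 ± 0.255. The median of the list was 0.48, and it was -0.16 with the immediate-early covariate.

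Macrophage markers mostly read lower. Of 15 measured, 12 had a lower mean, the median was -0.35, and 5 were apart below and 1 above, against 4.26% and 3.88% of all genes. With that array left out, as for the other lists, 11 were apart below, where 10.5% of all genes were. Adgre1, which encodes F4/80, read 6.49, 6.50 and 6.72 against 6.68, 6.98 and 7.17, where replicate 3 of the knockout overlapped replicate 1 of Tm180. Csf1r, the receptor for macrophage colony-stimulating factor, read 7.87, 7.83 and 7.95 against 7.99, 8.29 and 8.41, without overlap. Mrc1, a mannose receptor of resident macrophages, differed by -0.51 ± 0.168. Of the 3 markers with a higher mean, the 1 apart above was Cd14, the lipopolysaccharide co-receptor, at 8.35, 9.05 and 8.60 against 7.97, 5.87 and 5.68. The median was -0.36 at 12 months and -0.05 in PLB KO against NTG at 4 months. The neutrophil markers S100a8 and S100a9 read 0.78 and 0.59 higher with overlapping groups. The median of 9 neutrophil and platelet markers was 0.21, with 2 apart above, or 5 without Tm180 replicate 1, where 3.88% and 8.42% of all genes were.

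**Figure D3:**
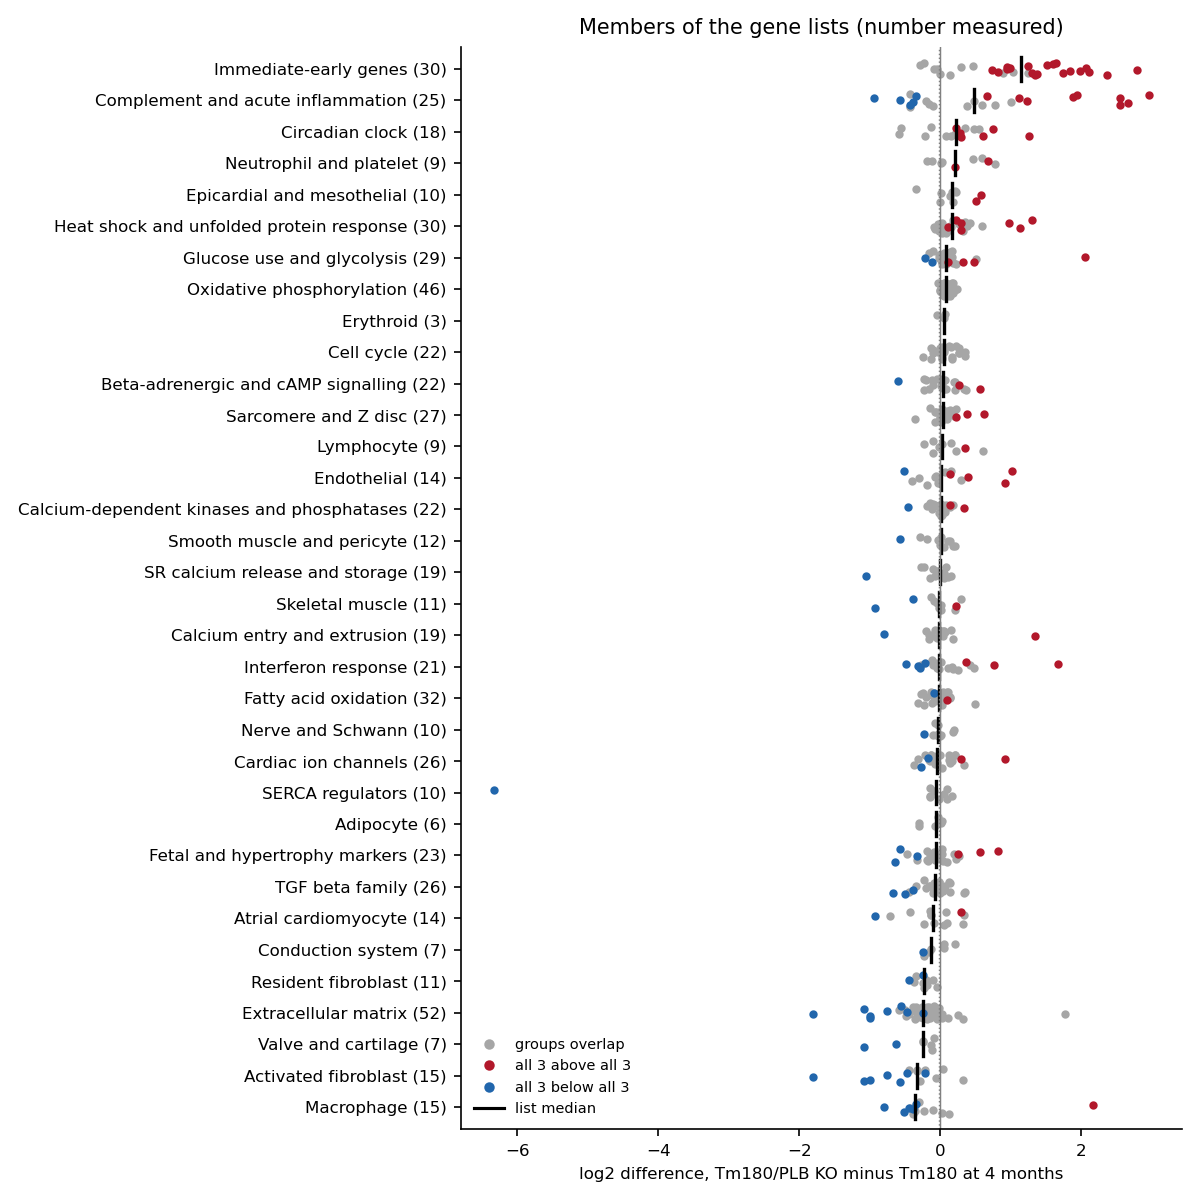
Log2 difference (Tm180/PLB KO minus Tm180 at 4 months) of every measured member of 34 gene lists, with the number measured; black bars are list medians, red and blue points genes whose 3 Tm180/PLB KO arrays all lay above or below the 3 Tm180 arrays. Immediate-early genes have the highest median (1.14), macrophage markers the lowest (-0.35), and Pln is the single point near -6.33.

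Among the genes with lower values, none passed the test other than Pln. The 14 named by rank had limma adjusted p from 0.0645 to 0.338, and 2 of them, Thbs4 and Col12a1, are in the list of extracellular matrix genes. Thbs4, a thrombospondin of the injured heart and tendon matrix, read 7.07, 7.51 and 7.37 in Tm180/PLB KO and 9.84, 8.93 and 8.58 in Tm180, a difference of -1.80 ± 0.353. Col12a1, a fibril-associated collagen, read 5.26, 5.58 and 5.58 against 6.83, 6.21 and 6.36. P3h2, a prolyl hydroxylase that modifies collagens, read 6.87, 7.40 and 7.49 against 8.40, 7.97 and 8.33. In these 3 genes, ranked on these same arrays, the groups were apart.

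Shisa3, an inhibitor of Wnt and FGF receptor maturation, came closest to the threshold among the lower genes, at 6.06, 6.20 and 6.05 against 6.97, 7.02 and 6.69 (-0.79 ± 0.141, adjusted p = 0.0645). With the replicate block Shisa3 passed at an adjusted p of 0.0167, and so did Shisa4 at 0.00407. The other named genes were Pamr1 (-0.88), the metalloprotease Adamts20 (-0.70), Tnfsf18 (-0.58), Shisa4 (-0.64), Ahnak2 (-0.89) and Cfap126 (-0.49). Also named were the β-adrenergic receptor kinase family member Grk5 (-0.60), tenomodulin, Tnmd (-1.09), and Chodl (-0.79). Shisa3 also differed by -0.57 ± 0.141 at 12 months and by -0.58 ± 0.141 in PLB KO against NTG at 4 months, called in neither. Pamr1, Shisa4 and Cfap126 had higher means in Tm180/PLB KO than in Tm180 at 12 months. Enpp3, an ectonucleotide pyrophosphatase, did not follow the genotype: it read 11.05 and 11.18 on Tm180 replicates 2 and 3, 6.43 on Tm180 replicate 1 and 6.36 to 6.63 in Tm180/PLB KO. On the 18 arrays of the other groups it read 6.08 to 7.16. Without Tm180 replicate 1 its difference was -4.63 and passed the test, and with that array it was -3.07 ± 0.721 (adjusted p = 0.267).

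**Figure D4:**
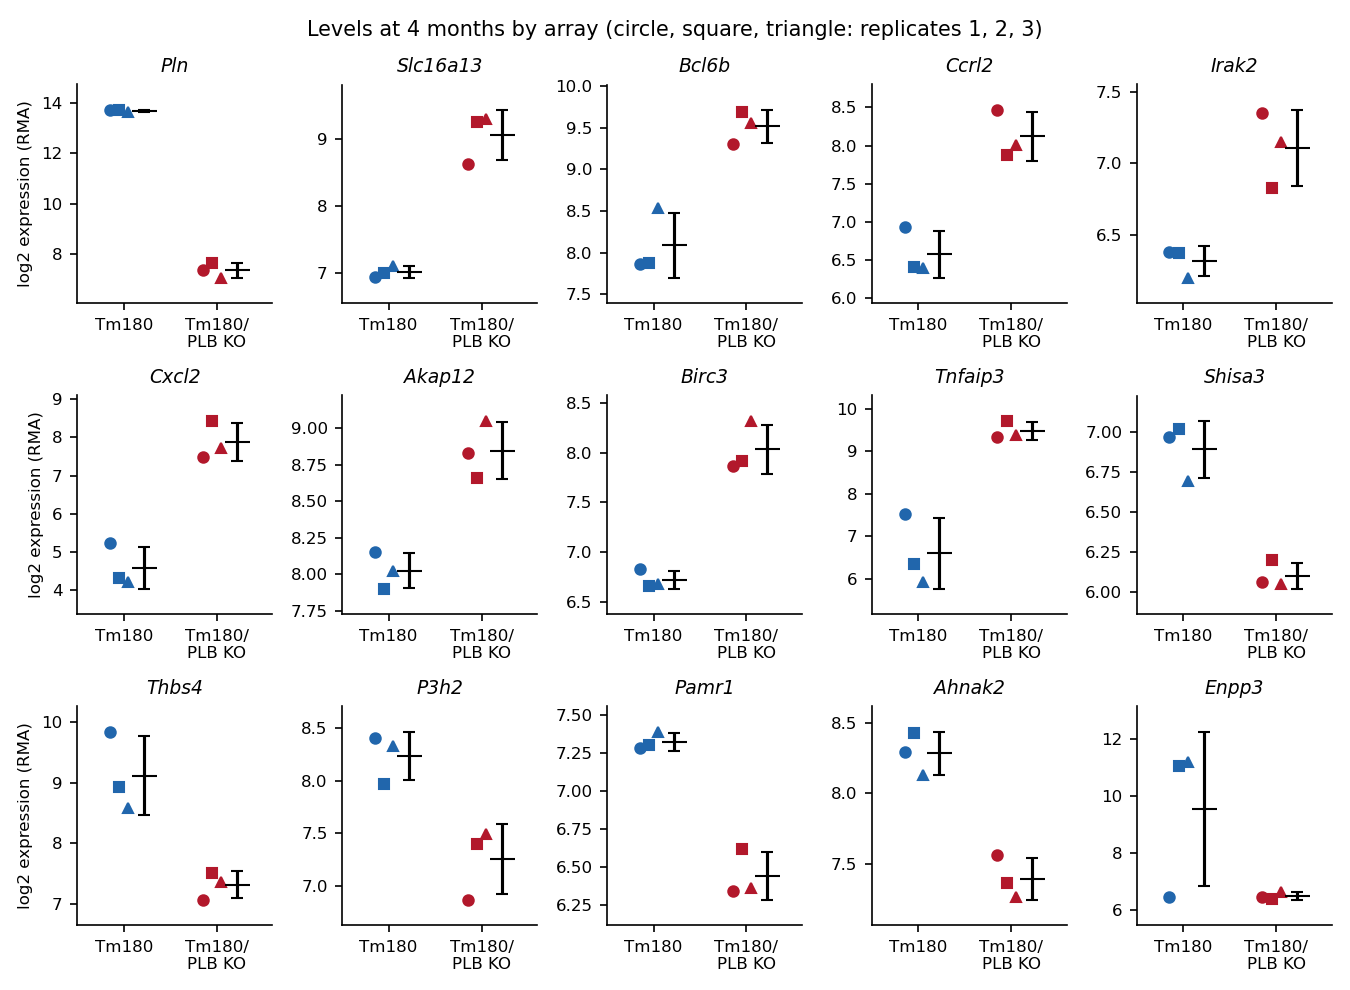
Log2 level of 15 genes on each array at 4 months, Tm180 in blue and Tm180/PLB KO in red, with group mean and SD (3 arrays) in black; scales differ between panels. Pln, Slc16a13 and Bcl6b passed the test, and Enpp3 shows 2 high Tm180 arrays, 11.05 and 11.18, and 1 at 6.43.

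Of 52 measured extracellular matrix genes, 46 had a lower mean in Tm180/PLB KO, the median was -0.24, and 8 were apart below against 4.26% of all genes, with 0 apart above. Col1a1 read 9.34, 10.24 and 10.16 against 9.77, 10.55 and 10.52, and Col1a2 read 9.19, 9.74 and 9.83 against 9.57, 10.11 and 10.16. Both groups overlapped as a whole, but each Tm180/PLB KO array lay below the Tm180 array of the same number in both genes. Comp (-1.08), a cartilage matrix protein, Fmod (-1.0), a collagen-binding proteoglycan, and Cilp (-0.76) were among those apart. The mean over the list was 8.22, 8.58 and 8.48 in Tm180/PLB KO, 8.63, 8.75 and 8.66 in Tm180 and 7.97 on average in NTG at 4 months. Without Tm180/PLB KO replicate 1 the median was -0.096, and that array had the lowest list mean of the 6. Leaving out Tm180 replicate 1 put 26 apart below and 3 above, where 10.5% and 8.42% of all genes were.

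Markers of activated fibroblasts had a median of -0.33, with 13 of 15 lower and 7 apart below, against 4.26% of all genes, and 0 above, or 1 without Tm180 replicate 1. Postn, periostin, read 9.58, 9.85 and 9.75 against 10.38, 10.24 and 9.95, while NTG averaged 8.34. All 11 markers of resident fibroblasts had lower means, by a median of -0.23, with 2 apart below, or 6 without Tm180 replicate 1, where 4.26% and 10.5% of all genes were. Their first members, Pdgfra and Tcf21, overlapped between the groups at -0.21 ± 0.234 and -0.05 ± 0.332. Of 26 genes of the TGF-β family, 3 were apart below, against 4.26% of all genes: Tgfb2 (-0.67), Bmp4 (-0.50) and Tgfb3 (-0.38). Tgfb1 read 8.48, 9.17 and 9.10 against 8.60, 8.49 and 8.65.

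Genes that respond to the transgene were taken from Tm180 against NTG at 12 months. There limma called 127 genes (0.798%), 62 higher and 65 lower in Tm180. The 12-month and 4-month comparisons share no array, but the fit took its spread from all arrays, the 4-month ones included. The choice was therefore not independent of the 4-month arrays. It favours genes with little spread within groups, which can raise the counts of genes apart. With only the compared groups in the fit 0 genes were called. The count was 15 without Tm180 replicate 2 at 12 months and 713 with the replicate block. Of the 62 genes higher with the transgene, 51 had a lower mean in Tm180/PLB KO than in Tm180 at 4 months, with a median of -0.24, and 30 were apart below and 1 above, against 4.26% and 3.88% of all genes. Of the 65 lower with the transgene, 48 had a higher mean, with a median of 0.15, and 14 were apart above and 3 below. Without Tm180 replicate 1 the counts were 30 below and 4 above for the first set, and 15 above and 12 below for the second, where 10.5% of all genes were apart below and 8.42% above. None of the 127 was called at 4 months.

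The mean level of the 62 genes at 4 months was 7.92 ± 0.118 (SD, n = 3) in NTG, 8.76 ± 0.112 in Tm180 and 8.45 ± 0.0932 in Tm180/PLB KO. Tm180/PLB KO arrays thus lay below all Tm180 arrays, 8.36 to 8.54 against 8.68 to 8.89, and above NTG. For the 65 genes it was 7.90 ± 0.0874 in NTG, 7.30 ± 0.153 in Tm180 and 7.40 ± 0.043 in Tm180/PLB KO, with the last 2 groups close together. In PLB KO against NTG at 4 months the medians had the other sign, 0.15 for the 62 genes and -0.19 for the 65, and the difference between the 2 contrasts called none of them in limma. Without Tm180 replicate 1 the median of the 65 genes was 0.035, and without Tm180 replicate 3 it was 0.22.

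**Figure D5:**
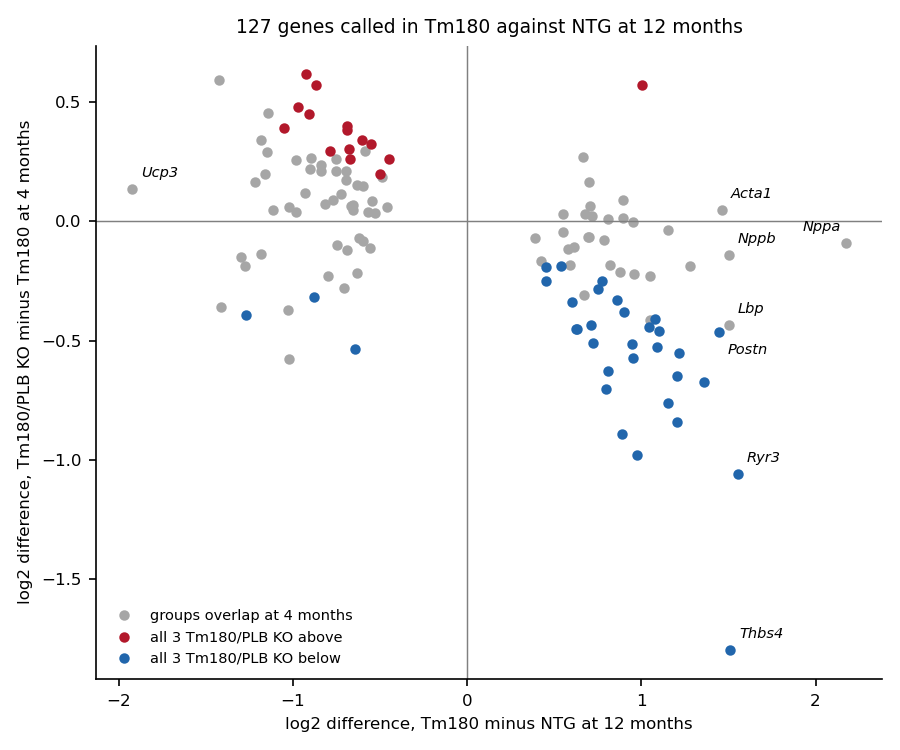
Each point is 1 of 127 genes called in Tm180 against NTG at 12 months: log2 difference at 12 months on the horizontal axis and Tm180/PLB KO minus Tm180 at 4 months, from other arrays, on the vertical axis, red and blue where all 3 Tm180/PLB KO arrays lay above or below the 3 Tm180 arrays. Of the 62 genes on the right, 51 lie below 0, Thbs4 lowest at -1.80, while Nppa at -0.09, Nppb and Acta1 lie near 0.

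The 8 largest 12-month differences did not all follow that pattern. Thbs4, Ryr3, Postn and the lipopolysaccharide-binding protein gene Lbp were lower in Tm180/PLB KO than in Tm180, by -1.80, -1.06, -0.46 and -0.43, with Lbp groups overlapping. Ryr3, a ryanodine receptor not typical of ventricle, read 5.30, 5.50 and 5.69 against 7.16, 6.07 and 6.42, and NTG averaged 5.35. The natriuretic peptide genes did not separate. Nppa read 12.69, 13.15 and 12.67 against 13.19, 12.99 and 12.60, both groups above the NTG mean of 10.50. Nppb read 11.03, 11.53 and 10.78 against 11.53, 11.03 and 11.21. Acta1, skeletal α-actin, differed by 0.05 ± 0.339 and the uncoupling protein gene Ucp3 by 0.14 ± 0.277.

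Fetal and hypertrophy markers as a list had a median of -0.06 over 23 genes, with 3 apart above and 3 below, against 3.88% and 4.26% of all genes. Myh7, the slow myosin heavy chain, read 11.28, 11.62 and 11.47 against 12.54, 11.77 and 12.00, apart with Tm180/PLB KO below, a difference of -0.65 ± 0.207 (unadjusted p = 0.00525). The log2 value of Myh7 minus that of Myh6 on the same array, used for comparison between groups, was -1.72 ± 0.17 (SD, n = 3) in Tm180/PLB KO, -0.98 ± 0.428 in Tm180 and -2.95 ± 0.425 in NTG. Tm180/PLB KO and Tm180 differed by -0.74 (two-sided exact permutation p = 0.1, the smallest that 3 against 3 arrays can give). Mybpc2, a skeletal myosin-binding protein gene, went the other way, at 9.32, 9.60 and 9.15 against 9.05, 8.68 and 8.63.

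The genes listed as SERCA regulators, among them the pump genes themselves, showed no call other than Pln. Atp2a2, the cardiac SERCA gene, read 13.41, 13.31 and 13.38 against 13.37, 13.29 and 13.30, a difference of 0.05 ± 0.076. The pump inhibitors Sln, sarcolipin, and Mrln, myoregulin, differed by -0.14 ± 0.286 and -0.01 ± 0.196 with overlapping groups. The pump isoforms Atp2a1 and Atp2a3 differed by -0.09 and -0.15. The calcium-binding regulators S100a1 and Hrc differed by 0.10 and -0.14, and Hax1, a binding partner of phospholamban, by 0.17. Tmem35a, a member of the list for which no action on the pump is shown here, differed by 0.10. In each of these 9 genes the groups overlapped, judged without regard to replicate number. Set against the Tm180 array of the same number, every Tm180/PLB KO array was higher for Atp2a2, S100a1 and Hax1. For Atp2a3 every one was lower. Of all 10 listed genes 2 were apart above and 3, Pln included, below when Tm180 replicate 1 was left out, where 8.42% and 10.5% of all genes were.

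In the rest of the calcium cycle the lists had medians near the -0.014 of all genes. Release and storage genes of the sarcoplasmic reticulum had a median of 0.00 over 19 genes. Ryr3 alone was apart, below, as were 4.26% of all genes. Without Tm180 replicate 1, 2 were apart above and 3 below, where 8.42% and 10.5% of all genes were. Ryr2, the cardiac release channel, differed by 0.00 ± 0.123 and Casq2, the calcium buffer of the store, by 0.03 ± 0.18. Calcium entry and extrusion had a median of -0.02 over 19 genes. Cacna1c, the pore of the L-type channel, read 9.92, 9.91 and 10.12 against 9.97, 9.89 and 10.09. Its regulators of the RGK family were the only members apart, Gem higher by 1.34 ± 0.413 and Rrad lower at -0.80 ± 0.488, neither called. That is 1 of 19 in each direction, against 3.88% and 4.26% of all genes. Without Tm180 replicate 1, 2 were apart below, where 10.5% of all genes were. Calcium-dependent kinases and phosphatases had a median of 0.01 over 22 genes. The kinase genes Camk2d and Camk2g differed by 0.05 and -0.10. Rcan1, a calcineurin inhibitor, read 9.63, 9.75 and 9.63 against 10.43, 10.18 and 9.79.

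Genes of β-adrenergic and cAMP signalling had a median of 0.04 over 22 genes. Adcy5 and Adcy6, the main cardiac adenylyl cyclases, differed by -0.16 and -0.10 with overlap. Grk5 read 8.24, 8.15 and 8.38 against 9.0, 8.71 and 8.87, and the phosphodiesterase gene Pde4b 8.17, 8.34 and 8.21 against 7.96, 7.36 and 7.71. Both pairs of groups were apart. Of 26 ion channel genes, 2 were apart above and 2 below, against 3.88% and 4.26% of all genes, and 8 were apart below without Tm180 replicate 1, where 10.5% were. Kcna5, an ultrarapid potassium channel, had the largest difference, at 8.05, 7.99 and 8.0 against 7.24, 7.38 and 6.64 (0.92 ± 0.363), and Scn4b differed by -0.37 ± 0.214.

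The metabolic lists had small medians. Oxidative phosphorylation genes had a higher mean in 44 of 46, but by a median of only 0.09, and 0 had the groups apart in either direction. Fatty acid oxidation had a median of -0.02 over 32 genes, and Cpt2 and Cpt1a differed by -0.11 and -0.11. Genes of glucose use had a median of 0.09 over 29 genes, close to that of oxidative phosphorylation. Their mean was 10.384, 10.336 and 10.312 in Tm180/PLB KO and 10.199, 10.205 and 10.149 in Tm180, without overlap. That mean includes Pfkfb3, the largest difference of the list at 2.06. Of these genes, 23 had a higher mean, 4 were apart above and 2 below, against 3.88% and 4.26% of all genes. On leaving out Tm180 replicate 1, 7 were apart above, where 8.42% were. Those above included the insulin-responsive transporter Slc2a4, at 10.07, 10.22 and 10.20 against 9.61, 9.98 and 9.93, and Pfkfb3, an activator of glycolysis, at 2.06 ± 0.737. Pfkfb3 was called with only the compared groups in the fit (limma, adjusted p = 0.0151). Those below were Pgk1 (-0.11) and Pygb (-0.21). Of 27 sarcomere and Z disc genes, 3 were apart above, or 7 without Tm180 replicate 1, where 3.88% and 8.42% of all genes were, and 0 below: Tmod4 (0.62), a cap of the thin filament, Tcap (0.38) and Myoz2 (0.22).

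Heat shock and clock genes had medians of 0.17 and 0.23. Of 30 heat shock and unfolded protein genes, 7 were apart above, against 3.88% of all genes, and 0 below. The count above was 16 without Tm180 replicate 1, where 8.42% were. An example is Hspa1a, the inducible heat shock protein, at 8.43, 8.35 and 8.92 against 7.52, 7.01 and 7.26. Of 18 circadian genes, 6 were apart above, against 3.88% of all genes, and 0 below. The counts were 9 above and 3 below without Tm180 replicate 1, where 8.42% and 10.5% were. An example is Per1, which also responds acutely to cAMP, at 8.55, 8.68 and 9.05 against 7.96, 7.49 and 7.07. Arntl and Clock differed by -0.59 and -0.13, and Arntl was low on Tm180 replicate 1 (5.61) as in Tm180/PLB KO (5.65 to 5.74) but not on Tm180 replicates 2 and 3 (6.51 and 6.73).

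Markers of other cell types were not called. Endothelial markers had a median of 0.02 over 14, with 4 apart above, Cldn5 (1.02), Aqp1 (0.92), Esam (0.40) and Pecam1 (0.15), and Egfl7 (-0.51) below, against 3.88% and 4.26% of all genes. The count below was 4 without Tm180 replicate 1, where 10.5% were. The epicardial and mesothelial genes Wt1 and Upk3b read 0.50 and 0.59 higher, and were the 2 of 10 apart above, or 5 without Tm180 replicate 1, where 3.88% and 8.42% of all genes were. Smooth muscle and pericyte, lymphocyte, erythroid, adipocyte, nerve, conduction and skeletal muscle markers had medians from -0.13 to 0.06. Atrial markers had a median of -0.11 over 14. Of these, Myl1 was called with the replicate block (-0.93, limma, adjusted p = 0.0119). Myl4 read 7.06, 8.82 and 6.88 against 7.49, 8.77 and 8.65. Valve and cartilage genes had a median of -0.25 over 7, all lower, with Comp and Chad apart below, against 4.26% of all genes. The interferon response had a median of -0.02 over 21 genes, with 3 apart above and 4 below, against 3.88% and 4.26% of all genes, and the cell cycle 0.05 over 22. Of 156 miRNA genes, 5 were apart above (3.21%) and 3 below (1.92%), shares under those of all genes. Their median was -0.07, and without Tm180 replicate 1 the counts were 13 and 8, where 8.42% and 10.5% of all genes were apart.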

How the data were processed

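Left ventricular RNA of 24 mice was measured on 24 arrays in 8 groups of 3. The authors deposited log2 expression values, for which the submitters' processing notes name RMA. The settings of RMA and the genome build were not given in the sources used. Precision is limited by the 3 arrays of each group. Groups follow the titles. Tm180/PLB KO replicate 2 at 4 months was kept at 4 months although its source name gives 12, since its title, description and age give 4. Each group has its own number in the description codes, which the labels do not explain, so an effect of that number cannot be told apart from genotype.

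The table held 35557 probe sets. The platform annotation gave 1 symbol for 21789, several for 1621 and none for 12147, and 21698 were matched to RefSeq of GRCm38.p6, giving 19938 genes. The probe set with the highest mean stood for each of 999 genes with several. Genes had to exceed 4.83, the 25th percentile, on 3 arrays, which left 15918. limma 3.58.1 in R 4.3.3 fitted 8 group means to all arrays (16 residual degrees of freedom), with Benjamini-Hochberg adjustment over all genes tested and a threshold of 0.05. Every adjusted p comes from limma, and p-values measure only the spread between these arrays. The script was tested on simulated data. Groups are called apart where all 3 arrays of one lie beyond all 3 of the other.

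Same-numbered Tm180/PLB KO and Tm180 arrays at 4 months deviated from their group means together, with correlations over genes of 0.36, 0.53 and 0.68. Replicate number was therefore added as a block in an alternative fit. A pairing by number comes from these data and the shared numbers in the titles. The main fit, the counts of genes apart and the exact permutation test took no pairing. The correlations of same-numbered PLB KO and NTG arrays at 4 months were 0.42, 0.39 and 0.6. In Tm180 and NTG at 12 months 1 was 0.06, and no pairing was taken.

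Always named were Pln and Tpm1. The rule then took called genes with groups apart, up to 15 in each direction, filled with the largest moderated t among genes at an unadjusted p under 0.001; called or the first 2 members of each of 20 pathway lists and 15 marker lists; all SERCA regulators; the 8 largest transgene responses; and the nearest 3 genes on either side of Pln. Predicted and clone names were counted only. The members and lists were chosen with earlier results of these data known. Of the lists, sex-linked genes served only to describe the arrays. Promoters and their coordinates are RefSeq's, from GRCm38.p6. Alternatives were the replicate block, 2 other dim filters, a trended prior, fewer groups, median centring, the mean of probe sets, array weights, a covariate of 3 Y-linked genes, and leaving out each array; an immediate-early covariate was chosen after seeing the data, as were the counts of genes apart without Tm180 replicate 1.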

Additional observations from a re-analysis of the deposited data

How the results depend on the processing

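Pln was called under every alternative run, and each of the 3 called genes kept its direction under all of them. The number of genes called in Tm180/PLB KO against Tm180 at 4 months was 3 without the dim filter, with the trended prior, with median centring and with the mean of probe sets, 4 with the filter at the 50th percentile and 4 with the immediate-early covariate. It was 15 with the replicate block, 7 with array weights, 6 with the Y-linked covariate, 1 with the 4-month groups alone and 18 with the compared groups alone (16 higher, 2 lower), and 1 to 4 when 1 array was left out. Of the genes in that comparison, those called under an alternative but not otherwise included Shisa3, Ccrl2, Cxcl2, Thbs4 and Irak2. The immediate-early covariate left 1.47 for Slc16a13 (adjusted p = 0.0273) and 1.19 for Bcl6b (adjusted p = 0.17), whose adjusted p over all its alternatives ran from 0.0067 to 0.408. The interactions called 0 genes under all settings, except 1 without Tm180 replicate 1 at 4 months in both and 1 without Tm180 replicate 1 at 12 months in that with age. Tm180/PLB KO against Tm180 at 12 months gave 1 to 5 calls when an array was left out, 5 without Tm180 replicate 1. PLB KO against NTG at 4 months gave 10 with the block, 234 with array weights and 1 to 2 on leaving out an array. Tm180 against NTG at 12 months gave 713 with the block, although same-numbered arrays there correlated at only 0.06 to 0.59. With the compared groups alone it gave 0 (927 at an unadjusted limma p under 0.05). Leaving out an array gave 15 to 144, the fewest without Tm180 replicate 2. Chosen anew with the block, the genes higher in Tm180 at 12 months had a median of -0.14 at 4 months and the genes lower 0.11; the immediate-early covariate gave 0.28 for the latter, and leaving out an array 0.035 to 0.22. The median for complement and acute inflammation was -0.16 with the immediate-early covariate against 0.48, and that for release and storage genes was 0.0034, and -0.061 (without Tm180 replicate 1) to 0.0014 on leaving out an array. The causes were not tested. In Tm180/PLB KO against Tm180 at 4 months the block also called Atg2a, Coq10a, Gca, Ppp1r15a and Sirpa, which are not described above. Of the genes described above, it changed no other call in that comparison than those given there.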
